A study of Mus musculus with 8 samples.

Results

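The genes of respiratory complexes II, III, IV and V were examined in the ATAC-seq peaks of brown adipose tissue (BAT). They were chosen by gene symbol, as every gene whose symbol starts with Sdh, Uqcr or Atp5, together with Cyc1 and 11 named Cox genes, where the gene had a curated RefSeq mRNA on an autosome. The rule found 44 of 21000 genes, namely 8 for complex II, 9 for complex III, 10 for complex IV and 17 for complex V. Cox7b was also on the list of symbols and was left out because it lies on the X chromosome. The rule uses no accessibility value. The 21000 genes lie on chromosomes 1 to 19, X and Y.

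BAT nuclei came from 2 WT and 2 Dot1L-BKO mice, fed chow to 12 weeks of age and kept at 4°C for 4 hr before the tissue was taken, so that both genotypes carry the cold treatment. The controls called WT carry floxed alleles (Dot1l f/f) as well. Dot1L-BKO mice carry floxed Dot1l and Cre driven by the Ucp1 promoter, and lack Dot1l, a histone H3 methyltransferase, in Ucp1+ cells, while the other cells of the tissue still carry it. The nuclei of each mouse were processed separately, but the values analysed here are a single list of 32173 peak summits in mm10, named as the WT libraries against the Dot1L-BKO libraries, with 1 score for each summit and none for any library. The score is a q-value from MACS2 on the −log10 scale. The sources do not say whether MACS2 was given the Dot1L-BKO libraries as its control. Without values per library, depth and replicate error are unknown and the genotypes could not be set against each other. A score ranks peaks within the list and is not a level of accessibility in either genotype. The scores ran from 1.31 to 13426 with a median of 5.0, and took only 2606 distinct values, so that ties are common.

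The tissue was checked by its marker genes. All 9 brown adipocyte markers had a summit within 1 kb of a transcription start site (TSS), with scores of 61.5 for Cidea, 35.0 for Fabp4, 33.7 for Ucp1, 23.1 for Plin1, 20.8 for Ppargc1a, 19.1 for Pparg, 8.65 for Prdm16 and 6.02 for both Dio2 and Adipoq. Fabp4, Plin1, Pparg and Adipoq mark adipocytes in general. Of the endothelial markers 1 of 4 had one (Cdh5, 2.59), of the macrophage and leukocyte markers 1 of 4 (Cd68, 2.15), of the fibroblast or progenitor markers 2 of 3 (Pdgfra, 4.16, and Col1a1, 3.75) and of the muscle markers 0 of 4, with Myod1, Myf5, Acta1 and Ckm all without one. What part those cells have in any summit below was not tested, and in whole tissue fewer cells of a type and less open chromatin per cell cannot be told apart. Because the MACS2 control is not known, a marker without a summit may be one that was not open or one at which the genotypes were alike, and these cannot be told apart either.

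Electrons enter the respiratory chain through complex I or, separately, through complex II. Complex II, succinate dehydrogenase, takes electrons from succinate into ubiquinone and is also an enzyme of the citric acid cycle. Complex III passes electrons from ubiquinol to cytochrome c, and complex IV, cytochrome c oxidase, passes them on to oxygen. Complex V, the ATP synthase, uses the proton gradient that complexes I, III and IV build, through a ring of c subunits in the membrane that drives the catalytic F1 head. Brown adipocytes are dense with mitochondria and burn fuel through this chain, while Ucp1 lets protons return without passing complex V. Nuclear genes encode every protein described here, and the catalytic core subunits of complex IV, the cytochrome b of complex III and some membrane subunits of complex V are made from mitochondrial DNA.

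In this list, 42 of the 44 genes had at least 1 summit within 1 kb of a TSS, called a promoter summit below, which is 95.5% (95% Wilson interval 84.9% to 98.7%, for counting error only). Over all 21000 genes the share was 45.2%, and over the 20021 on autosomes 46.8%. All 8 genes of complex II, all 9 of complex III and all 17 of complex V had one, and so did 8 of the 10 genes of complex IV, the exceptions being Cox6c and Cox6b2. The best promoter summit, the one with the highest score, had a median score of 14.9 over the 42 genes with quartiles of 9.28 and 22.4, and over all 9485 genes with a promoter summit the median was 10.7 with quartiles of 5.55 and 20.9. A promoter summit that scored 10 or more was present for 29 of the 44 genes (65.9%), against 23.5% of all genes, and 12 reached 20 (27.3%, against 11.9%). With 44 genes, these shares describe the list and were not set against chance. Complex V had the highest median, 17.8, followed by complex II with 13.1, complex IV with 11.8 and complex III with 10.9, and the range within each complex was wider than these gaps.

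**Figure D1:**
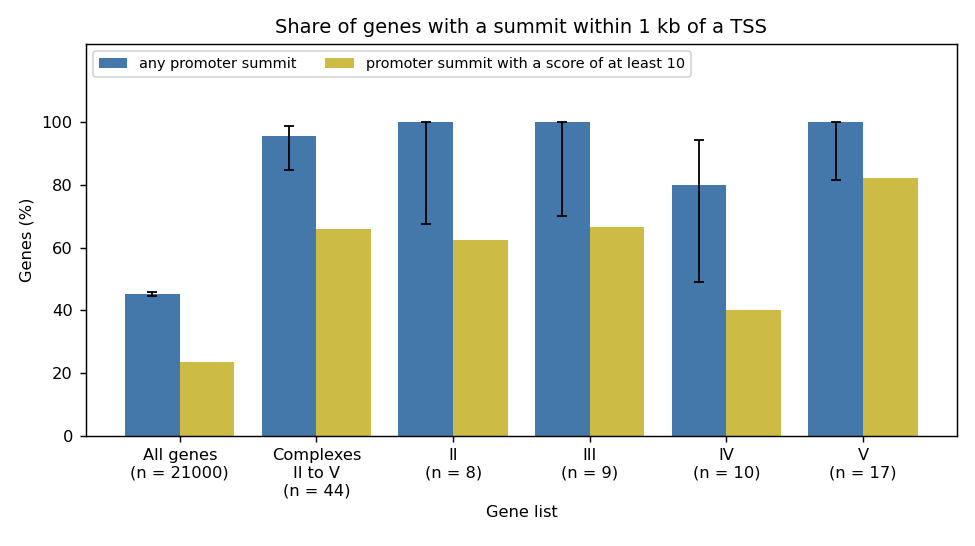
Share of genes (%) with a summit within 1 kb of a TSS (blue) and with such a summit of a score of at least 10 (yellow), for all 21000 genes, the 44 genes of complexes II to V and each complex, with n under each name. Error bars are 95% Wilson intervals of the blue bars. The 44 genes stand at 95.5% against 45.2% of all genes, and complex IV is the only complex below 100%, at 80.0%.

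Sequences at the promoters of 11 genes are shown first. They are the gene with the highest score in each of complexes II, III and IV, the 3 genes that encode the c subunit of the ATP synthase, and genes with a word known for NRF1, ERR or YY1, factors known to regulate nuclear genes of the respiratory chain. All are RefSeq sequence of mm10, 5′ to 3′ on the strand of the gene. Capitals mark the words GCATGCGC (NRF1), AAGGTCA (ERR), AAGATGGC (YY1) and CCGGAAG (ETS/GABP) on either strand. A word is a match of letters and not a bound site. Each stretch spans 121 bases centred on the best promoter summit, except for Sdhb, Cox5a and Atp5k, for which 180 bases ending 20 bases into the transcript are shown. The stretch of Cox5a stops short of its summit, at chr9:57521264. The iron-sulfur subunit gene Sdhb is read from chr4:140961111-140961290 (+), the flavoprotein gene Sdha from chr13:74349967-74350087 (−) and the membrane anchor gene Sdhc from chr1:171150475-171150595 (−). Uqcrq of complex III is read from chr11:53430915-53431035 (−), Cox5a of complex IV from chr9:57521072-57521251 (+). Of complex V, Atp5g1 lies at chr11:96075724-96075844 (−), Atp5g2 at chr15:102671110-102671230 (−), Atp5g3 at chr2:73911056-73911176 (−), Atp5k at chr5:108434380-108434559 (−), Atp5l at chr9:44920952-44921072 (−) and Atp5j2 at chr5:145191462-145191582 (−).
Sdhb: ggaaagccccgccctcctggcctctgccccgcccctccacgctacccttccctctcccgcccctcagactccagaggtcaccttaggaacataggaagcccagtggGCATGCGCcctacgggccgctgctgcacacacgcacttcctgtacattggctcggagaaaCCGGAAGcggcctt
Sdha: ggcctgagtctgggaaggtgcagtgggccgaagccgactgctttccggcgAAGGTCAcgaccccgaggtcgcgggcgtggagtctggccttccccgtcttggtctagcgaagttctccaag
Sdhc: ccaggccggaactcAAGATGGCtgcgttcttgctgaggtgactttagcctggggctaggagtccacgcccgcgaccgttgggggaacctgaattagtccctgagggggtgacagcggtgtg
Uqcrq: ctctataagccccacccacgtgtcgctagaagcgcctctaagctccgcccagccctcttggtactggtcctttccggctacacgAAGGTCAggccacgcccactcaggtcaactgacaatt
Cox5a: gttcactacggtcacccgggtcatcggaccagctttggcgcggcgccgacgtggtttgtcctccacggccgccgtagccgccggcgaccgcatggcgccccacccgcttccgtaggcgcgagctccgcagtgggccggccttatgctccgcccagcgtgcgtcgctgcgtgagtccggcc
Atp5g1: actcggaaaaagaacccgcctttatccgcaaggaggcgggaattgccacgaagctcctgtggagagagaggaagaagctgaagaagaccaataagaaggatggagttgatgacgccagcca
Atp5g2: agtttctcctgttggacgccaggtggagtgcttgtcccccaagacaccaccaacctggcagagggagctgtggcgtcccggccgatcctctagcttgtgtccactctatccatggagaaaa
Atp5g3: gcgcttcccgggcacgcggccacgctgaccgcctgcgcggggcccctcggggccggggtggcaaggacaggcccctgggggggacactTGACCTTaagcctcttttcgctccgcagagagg
Atp5k: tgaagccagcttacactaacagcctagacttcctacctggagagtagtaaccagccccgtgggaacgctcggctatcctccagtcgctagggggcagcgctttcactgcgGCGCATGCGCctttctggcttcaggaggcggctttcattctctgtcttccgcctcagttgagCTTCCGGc
Atp5l: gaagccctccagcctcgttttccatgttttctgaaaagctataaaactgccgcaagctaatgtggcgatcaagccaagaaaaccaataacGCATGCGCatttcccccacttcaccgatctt
Atp5j2: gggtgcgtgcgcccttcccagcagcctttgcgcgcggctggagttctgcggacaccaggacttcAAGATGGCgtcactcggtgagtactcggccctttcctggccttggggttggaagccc
Sdhb, Atp5k and Atp5l carry the NRF1 word, Sdha, Uqcrq and Atp5g3 the ERR word, and Sdhc and Atp5j2 the YY1 word, in which the letters ATG are the annotated start codon of both genes. Cox5a, Atp5g1 and Atp5g2 have no capitals in the stretch shown, and the NRF1 word of Atp5g2 lies outside it, 85 bp from the summit.

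Complex II has 4 subunits, and their best promoter summits scored 23.1 for Sdhb, 20.2 for Sdhd, 16.7 for Sdha and 8.65 for Sdhc. Sdhb, which carries the iron-sulfur centres, had its summit at chr4:140961256, 15 bp upstream of the TSS and at rank 2399 of 32173. Sdhd, a membrane anchor that binds ubiquinone, had its summit at chr9:50603989, 140 bp upstream, at rank 2985. For Sdha, the flavoprotein that oxidizes succinate, the summit lay at chr13:74350027 in intron 1, 213 bp downstream of the TSS and at rank 3903. For Sdhc, the other anchor, it lay at chr1:171150535, also in intron 1, 68 bp downstream and at rank 8560, so that the lowest of the 4 subunit scores fell below the 10.7 median of all genes with a promoter summit. Sdhb was the only subunit of complex II with further summits in its gene body, at scores of 4.61, 4.16 and 4.75 in introns 1, 3 and 5, all below the median of the whole list.

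The 4 assembly factors of complex II had a median score of 10.5, against 18.5 for the 4 subunits, and the ranges overlapped. Sdhaf1, which helps insert the iron-sulfur centres, scored 13.4 at chr7:30322390, 15 bp upstream of the TSS. Sdhaf2, needed to attach flavin to Sdha, had a pair of promoter summits with the same score of 12.8, at chr19:10525105 and chr19:10525517, 104 bp downstream and 308 bp upstream, on either side of its TSS and of the TSS of Cpsf7. Sdhaf3, a further factor for the iron-sulfur subunit, scored 8.12 at chr6:6955967, 51 bp upstream. Sdhaf4, which acts on the flavinated Sdha, had the lowest score of all 42 genes, 2.15 at chr1:24005659, 19 bp upstream, at rank 28201 and thus near the end of the list.

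**Figure D2:**
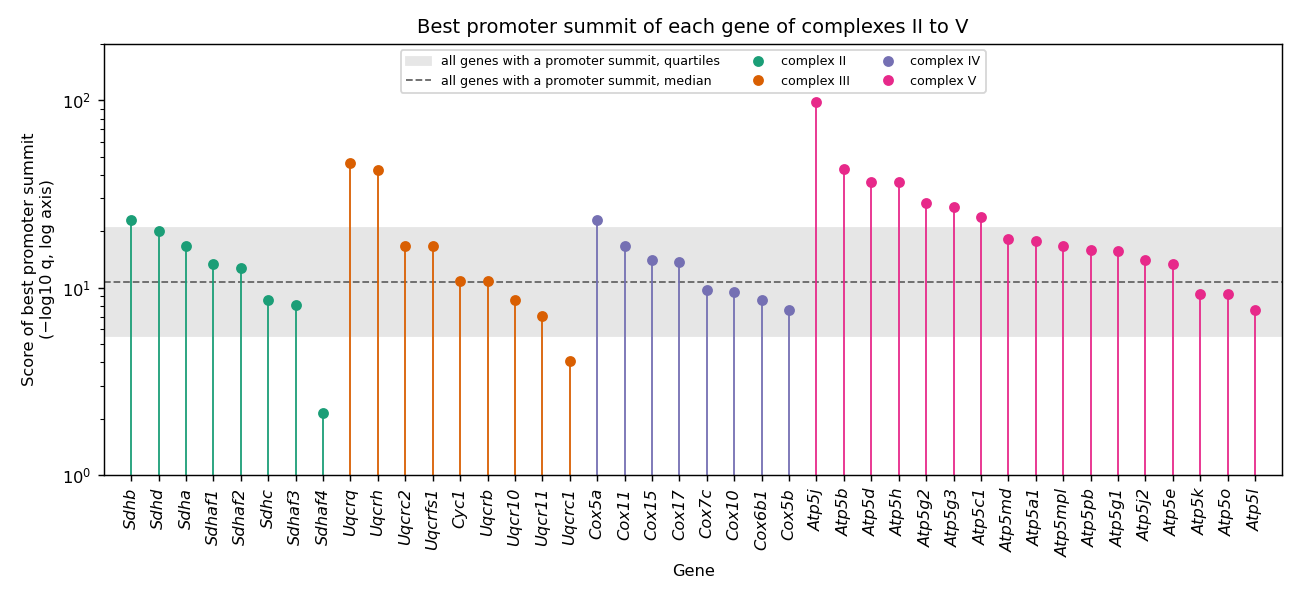
Score of the best promoter summit (−log10 q, log axis) for each of the 42 genes of complexes II to V that had one, coloured by complex and ordered by score within it. The shaded band spans the quartiles of all 9485 genes with a promoter summit (5.55 to 20.9) and the dashed line is their median (10.7). Atp5j stands at the top with 98.3 and Sdhaf4 at the bottom with 2.15, and 29 of the 42 lie above the dashed line.

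In complex III, 2 small subunits stood far above the rest. Uqcrq, which sits next to cytochrome b, scored 46.3 at chr11:53430975, 144 bp upstream of the TSS (rank 678), and Uqcrh, the hinge protein that contacts cytochrome c1, scored 42.6 at chr4:116075166, 96 bp upstream (rank 810). Only Atp5j and Atp5b of complex V scored higher than Uqcrh among the other genes. The core protein gene Uqcrc2 and Uqcrfs1, which encodes the Rieske iron-sulfur protein, shared the score of 16.7, at chr7:120635209 and chr13:30545314, 20 bp and 2 bp downstream of their TSSs. Uqcrb, with 10.9 at chr13:66905193, had its summit in intron 1, 157 bp downstream.

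The remaining subunits of complex III were below the median of all genes with a promoter summit, apart from Cyc1. Uqcr10 scored 8.65 at chr11:4704468, 124 bp upstream, and Uqcr11 scored 7.05 at chr10:80406921, 100 bp upstream. The other core protein gene, Uqcrc1, had the lowest score of the complex, 4.04 at chr9:108936991 in intron 1, 343 bp downstream of the TSS. The paired core genes Uqcrc1 and Uqcrc2 thus lay at ranks 19971 and 3909 of the list. Cyc1 encodes cytochrome c1. Its best one, with 10.9, was at chr15:76344391, 868 bp downstream in coding exon 2, and the nearer one, 465 bp upstream at chr15:76343058, had a score of only 2.09. GENCODE also gives Cyc1 a non-coding transcript that starts at chr15:76344476, just past the best summit, so that its distance rests on the RefSeq start. Cyc1 was the only gene of the 42 whose best promoter summit fell in coding sequence. Uqcrfs1 and Uqcr11 also had a further promoter summit, at 437 bp downstream with 2.92 and at 729 bp upstream with 3.05.

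Complex IV held both genes without a promoter summit. Cox6c, a small structural subunit, spans chr15:35931976-35938246 and had no summit within 10 kb of its TSS. The nearest lay 29142 bp downstream, at chr15:35909104, with a score of 11.5. A search of the 6 starts that GENCODE gives for Cox6c also found 0 summits within 1 kb. Cox6b2, an isoform known from testis, spans chr7:4751792-4753094, and its nearest summits were 3552 bp downstream with 3.32 and 3592 bp upstream with 1.42. Its ubiquitous counterpart Cox6b1 scored 8.65 at chr7:30626127, 13 bp upstream of the TSS. The CpG ratio around the TSS, the count of CG pairs over that expected from the base composition, was 0.856 for Cox6c and 0.391 for Cox6b2. Its median was 0.838 over the 44 genes, 0.818 over all genes with a promoter summit and 0.313 over all genes without one.

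Among the other subunits of complex IV, Cox5a, on the matrix side of the enzyme, led with 23.1 at chr9:57521264, 32 bp downstream of the TSS. Cox7c scored 9.78 at chr13:86046734, 61 bp downstream, and Cox5b, the zinc-binding subunit, 7.58 at chr1:36691510, 23 bp downstream. All 3 summits lay in the 5′ UTR in exon 1. The median over the 4 subunits with a promoter summit was 9.22, below the 10.7 of all genes, and 1 of 6 subunits reached a score of 10.

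The 4 assembly genes of complex IV had a median of 13.9, with a narrower range. Cox11, which delivers copper to the catalytic core, scored 16.7 at chr11:90638005, 179 bp upstream, with a further summit of 6.02 at 483 bp downstream. Cox15, needed for the heme a of the enzyme, scored 14.0 at chr19:43753449, 449 bp upstream and on the far side of the TSS of Cutc. Cox17, the copper chaperone, scored 13.8 at chr16:38347219 in intron 1, 220 bp downstream. Cox10, the farnesyltransferase that makes heme o, scored 9.50 at chr11:64079553, 81 bp upstream.

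All 17 genes of complex V had a promoter summit that scored 5 or more, against 36.1% of all genes, and 14 of 17 reached 10. The 5 genes of the F1 head had a median of 23.8. Atp5b, the catalytic beta subunit, scored 42.8 at chr10:128083202, 105 bp upstream of the TSS (rank 786), and Atp5d, the delta subunit, 36.7 at chr10:80142320, 5 bp downstream (rank 1089). Atp5c1, the gamma subunit that turns inside the head, scored 23.8 at chr2:10080234, 198 bp downstream. The alpha subunit Atp5a1 scored 17.8 at chr18:77774190 in intron 1, 422 bp downstream. Atp5e, the epsilon subunit, scored 13.4 at chr2:174464146, 45 bp upstream. Alpha and beta form the head together in equal number, and their summits lay at ranks 3681 and 786.

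The 3 genes of the c subunit encode the same mature protein behind different import peptides. Their scores were 28.5 for Atp5g2, at chr15:102671170, 26.9 for Atp5g3, at chr2:73911116, and 15.7 for Atp5g1, at chr11:96075784. The summits lay 123 bp upstream, 210 bp downstream in intron 1 and 90 bp upstream of their TSSs. Atp5g3 also had a summit of 6.02 in coding exon 4. No marked word is common to the stretches printed above, and the whole windows of 100 bp on either side of the summit held the NRF1 word for Atp5g2, the ERR word for Atp5g3 and, of the 7 words searched, only CCAAT for Atp5g1.

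The 4 genes of the peripheral stalk, which holds the head still, spread over the widest range. Atp5j, the coupling factor 6 subunit, had the highest score of all 44 genes, 98.3 at chr16:84834908 in the 5′ UTR, 68 bp downstream of a TSS and at rank 61 of the list. Among the 9485 genes with a promoter summit it was at rank 33. A further promoter summit, with 11.3, lay 722 bp upstream of the nearest TSS at chr16:84836347. The TSS of Gabpa, which encodes the DNA-binding subunit of the ETS factor GABP, lies 102 bp upstream of a TSS of Atp5j on the opposite strand, so that the summit cannot be assigned to either gene alone. Atp5h, subunit d, scored 36.7 at chr11:115419920, 1 bp upstream, and 6.02 at 755 bp upstream. Atp5pb, subunit b, scored 16.0 at chr3:105959412, 149 bp upstream, and Atp5o, the oligomycin sensitivity protein that joins stalk and head, 9.21 at chr16:91931646, 16 bp upstream.

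The 5 small membrane subunits of complex V had the lowest median of its groups, 14.0. Atp5md scored 18.1 at chr19:47090778, 131 bp upstream, and Atp5mpl 16.7 at chr12:111966951, 58 bp downstream, with a second summit of 1.83 at 798 bp downstream. Atp5j2, subunit f, scored 14.0 at chr5:145191522, 19 bp downstream. Atp5k and Atp5l, subunits e and g, which take part in holding ATP synthase dimers together, scored 9.21 and 7.58. The summit of Atp5k fell exactly on the TSS, at chr5:108434399, and that of Atp5l lay at chr9:44921012, 270 bp upstream.

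Where the summit lay differed from gene to gene. Of the 42 best promoter summits 22 lay upstream of the transcript, 12 in the 5′ UTR part of exon 1, 7 in intron 1 and 1 in a coding exon. Of these, 14 were within 50 bp of the TSS and 23 within 100 bp, which is 54.8% against 38.2% over all genes with a promoter summit, and the median distance was 93 bp against 143 bp. In complex I the share within 100 bp was 58.5% and the median distance 79 bp, and for mitochondrial ribosomal protein genes they were 43.3% and 120 bp. The summits of Cyc1, Cox15, Atp5a1 and Uqcrc1 were more than 300 bp away. Just inside the limit of 1 kb lay the summits of Cyc1 at 868 bp and Atp5mpl at 798 bp, and just outside lay those of Uqcrq at 1030 bp (score 3.75) and Uqcr11 at 1504 bp (score 2.42). When the window was narrowed to 1 kb upstream and 100 bp downstream, 35 of the 44 genes still had a promoter summit, against 35.2% of all genes, and Sdha, Uqcrb, Uqcrc1, Cox17, Atp5a1, Atp5c1 and Atp5g3 lost it.

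**Figure D3:**
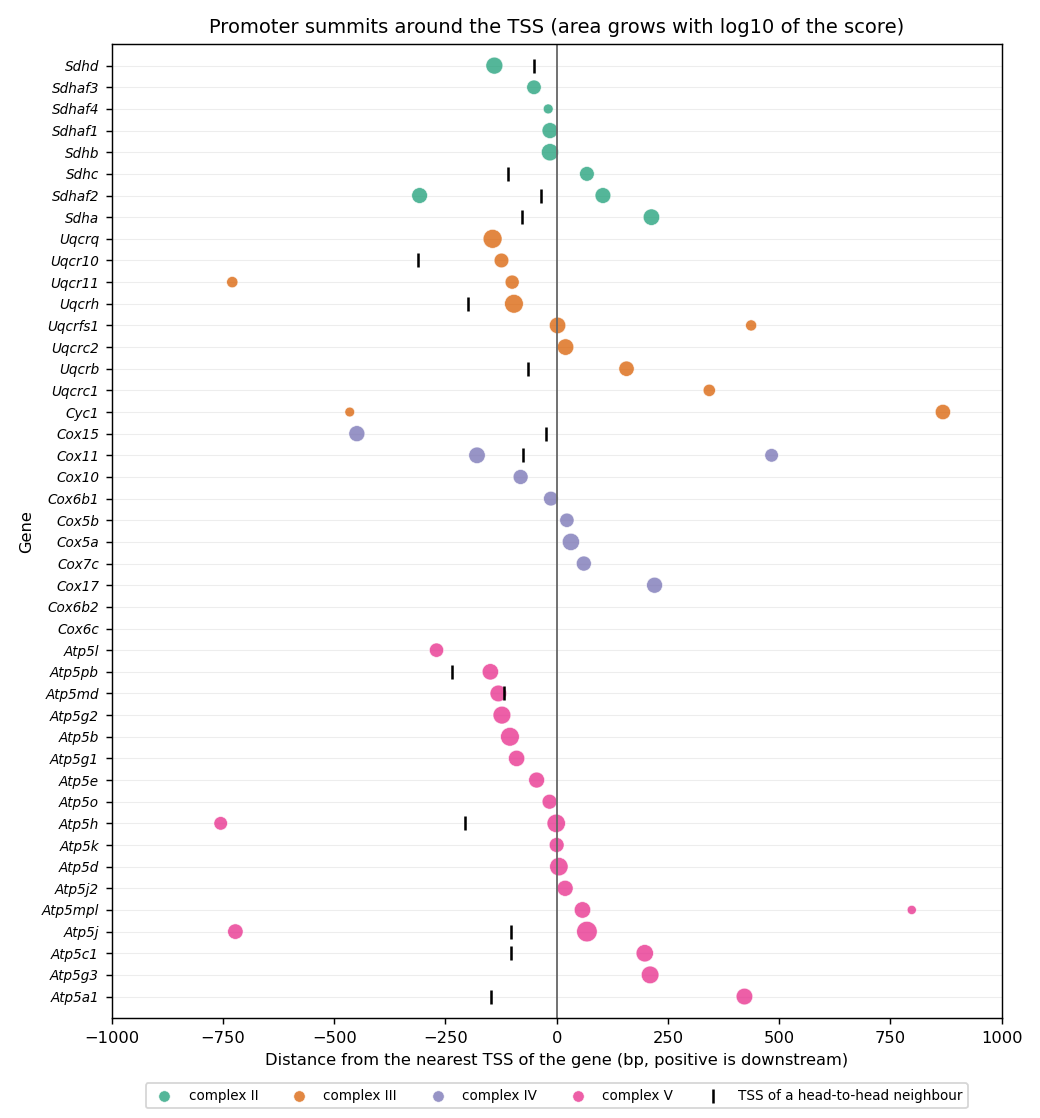
Distance (bp) of every promoter summit from the nearest TSS of its gene, for the 44 genes grouped by complex and ordered by the position of the best summit, with negative values upstream. Circle area grows with the log10 of the score, and black ticks mark the TSS of a neighbour on the opposite strand. Most circles lie within 300 bp of the TSS, Cyc1 is farthest at 868 bp, and Cox6b2 and Cox6c have none.

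More than 1 promoter summit was found for 8 of the 44 genes (18.2%, against 8.08% of all genes), namely Sdhaf2, Cyc1, Uqcr11, Uqcrfs1, Cox11, Atp5h, Atp5j and Atp5mpl. Apart from the equal pair of Sdhaf2, the additional summit scored between 1.83 and 11.3, below the best summit of the gene. In all, 50 distinct summits lay within 1 kb of a TSS of these genes.

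A head-to-head neighbour, a gene on the opposite strand whose TSS lies upstream within 1 kb, was found for 15 of the 44 genes (34.1%, against 8.80% of all genes, 37.0% of complex I genes and 34.6% of mitochondrial ribosomal protein genes). In complex II these included Sdha with Ccdc127, Sdhd with Timm8b and Sdhaf2 with Cpsf7. In complex III they were Uqcr10 with Zmat5, Uqcrb with Gm10767 and Uqcrh with Lrrc41, and in complex IV Cox11 with Stxbp4 and Cox15 with Cutc. In complex V they were Atp5a1 with Haus1, Atp5c1 with Kin, Atp5h with Kctd2, Atp5j with Gabpa, Atp5md with Pdcd11 and Atp5pb with Wdr77. The starts of a pair were 23 to 312 bp apart, and a summit between or beside them belongs to both promoters. Sdhd and Timm8b, which encodes a small chaperone of mitochondrial import, are a pair in which both partners act in mitochondria.

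All 15 genes with such a neighbour had a promoter summit, with a median score of 16.7, and so did 27 of the 29 without (93.1%), with a median of 13.4. Over all genes the gap in presence was wide, 89.8% of the 1849 genes with a head-to-head neighbour and 40.9% of the 19151 without, with medians of 16.7 and 9.53. When each summit was given only to the gene of its nearest TSS, at any distance, 39 of the 44 genes had a summit, fewer than the 42 above, while all genes with one rose from 9485 to 12153 (57.9%). The 39 include Cox6b2 and Cox6c, which are not among the 42 and were given a summit more than 1 kb away. The 5 that had none, Sdhd, Cox15, Atp5a1, Atp5md and Atp5pb, all have a head-to-head neighbour.

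Beyond the promoters the list held few strong summits near these genes. Within 10 kb of a TSS, 43 of 44 genes (97.7%) had a summit, against 53.9% of all genes, and within the gene body 25 (56.8%), against 39.7%. The gene bodies were short, with a median of 7336 bp against 16690 bp over all genes. The median was 7720 bp for complex I genes and 7469 bp for mitochondrial ribosomal protein genes. Only 10 body summits, in 7 genes, lay outside a promoter window. Of the 87 summits within 10 kb, 50 were promoter summits and 37 were not. Of these 37, 6 were promoter summits of another gene, 7 lay in the body of the gene and 24 in neither. The 6 that belong to the promoter of another gene had a median score of 30.4, and the other 31 had a median of 3.75. For 26 genes the promoter summits were the only summits within 10 kb, and the like share of all genes was not counted. The median number of summits within 10 kb was 1 both for the 44 genes and for all genes, so few summits near a gene are no trait of this group.

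Uqcr11 and Atp5d, both on chromosome 10, had the most summits within 10 kb, 10 and 9, a number reached by 1.16% of all genes. Near Uqcr11 the strongest was the promoter summit of Mbd3, with 62.5 at 7188 bp downstream, and the remaining summits scored 7.05 or less. Near Atp5d the strongest was the promoter summit of Midn, with 41.0 at 6849 bp downstream, above the 36.7 of Atp5d itself. Among summits that lay in no promoter, the highest were 33.7 at 6559 bp downstream of Atp5h and 27.7 at 7929 bp downstream of Atp5b. Both lie past the end of the gene.

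The bases within 100 bp of each best promoter summit were searched, on both strands, for 7 words known for factors of respiratory chain promoters or of promoters in general. The word AAGGTCA, known for estrogen-related receptors (ERR), was found for 8 of the 42 genes (19%), against 2.50% of all 9485 genes with a promoter summit. These were Sdha, Uqcrc1, Uqcrq, Atp5c1, Atp5e, Atp5g3, Atp5k and Atp5mpl, with the word 7 to 81 bp from the summit. None of the 8 windows in complex IV held it. The word CCGGAAG, the core bound by ETS factors such as GABP, was found for 16 genes (38.1%, against 14.1%), among them 5 of 8 in complex II, 3 of 9 in complex III, 3 of 8 in complex IV and 5 of 17 in complex V. The window of Atp5j, beside the gene for GABP itself, is one of them.

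GCATGCGC, the word of NRF1, was present for Sdhb, Atp5g2, Atp5k and Atp5l (9.52%, against 3.71%), and overlaps its own reverse complement in Atp5g2 and Atp5k. AAGATGGC, the word of YY1, was present for Sdhc, Atp5a1, Atp5j2 and Atp5o (9.52%, against 2.94%). Its ATG is the annotated start codon in Sdhc, Atp5j2 and Atp5o, 3 of 4 genes, against 84 of 279 genes with the word (30.1%) in the whole list. At least 1 of the NRF1, ERR and YY1 words was found for 15 genes (35.7%, against 8.89%). The general promoter words were at shares level with or below those of all genes, with GGGCGG (SP/KLF) in 20 windows (47.6%, against 49.1%), CCAAT (NFY) in 10 (23.8%, against 30.2%) and TGACGTCA (CRE) in 1, that of Uqcrfs1 (2.38%, against 2.37%). The median GC content of the windows was 63.2% both for the 42 genes and for all genes with a promoter summit.

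**Figure D4:**
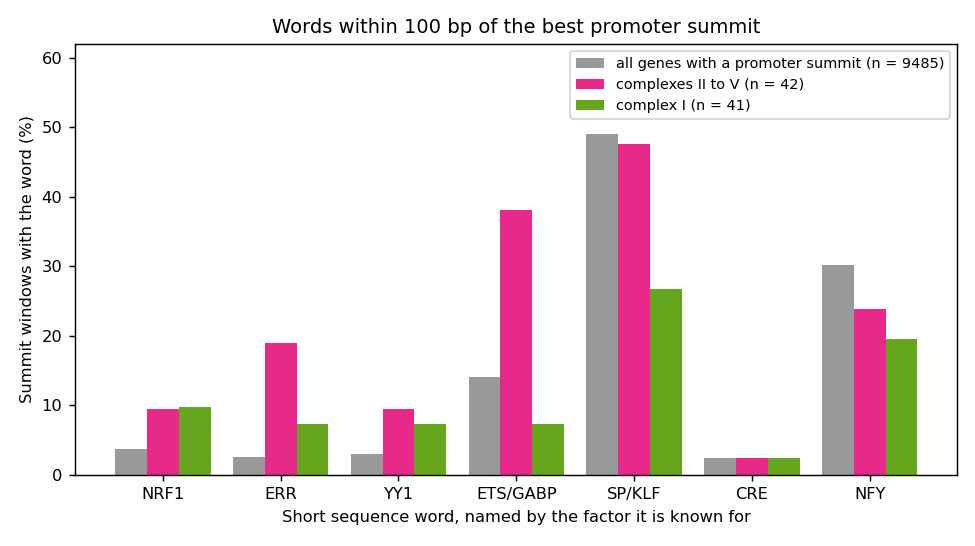
Share (%) of windows of 100 bp on either side of the best promoter summit that hold each word on either strand, for all genes with a promoter summit (grey), the genes of complexes II to V (pink) and those of complex I (green), with n in the key. The ERR and ETS/GABP bars stand higher for complexes II to V, at 19% and 38.1%, than for all genes, at 2.50% and 14.1%, and the SP/KLF, CRE and NFY bars are level or lower.

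Words differed between genes of the same complex. Sdhb and Atp5e held 4 of the 7 words each, and 6 genes (14.3%, against 29.4% of all genes with a promoter summit and 43.9% of those of complex I) held none, namely Cyc1, Uqcr10, Uqcrc2, Cox7c, Cox11 and Atp5d. Atp5d, with none, scored 36.7, and Atp5e, with 4, scored 13.4. Atp5j, with the highest score, held only the ETS/GABP word. Uqcr10 had the lowest GC content of the 42 windows, 36.3%, and Atp5a1 the highest, 77.6%.

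Complex I is the entry point of electrons from NADH and the group most like these genes. Of its 46 Nduf genes 41 (89.1%, against 45.2% of all genes) had a promoter summit, with a median score of 14.0. A score of 10 was reached by 28 (60.9%, against 23.5%). A score of 20 was reached by 34.8% of the complex I genes, against 27.3% in complexes II to V, and 2 or more promoter summits were present for 2.17%, against 18.2%. The summit windows of complex I held the ERR word in 3 of 41 (7.32%) and the ETS/GABP word in 3 of 41 (7.32%), and the NRF1 word in 4 (9.76%). The YY1 word was in 3 (7.32%, against 2.94% of all genes with a promoter summit). At least 1 of the NRF1, ERR and YY1 words was in 9 (22.0%, against 8.89%). The difference in word shares between the groups was not tested. Of 78 mitochondrial ribosomal protein genes 67 (85.9%) had a promoter summit, with a median of 11.5, and of their windows 1.49% held the ERR word and 26.9% the ETS/GABP word.

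Apart from Cox6b1 and Cox6b2, the cytochrome c oxidase subunits that come as tissue isoforms are not among the 44 genes, and 9 of them were counted beside these. A promoter summit was present for 6 of the 9. Of the isoforms known from heart, muscle and brown fat, Cox7a1 had one with 15.4 and Cox8b with 6.02, and Cox6a2 had none, while the general isoforms Cox4i1, Cox6a1, Cox7a2 and Cox8a had 14.0, 9.78, 22.7 and 26.9. The lung isoform Cox4i2 and the testis isoform Cox8c had none.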

How the data were processed

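ATAC-seq libraries were made by the authors from BAT of 2 mice per genotype. Reads were aligned to mm10 with BWA-backtrack in Partek Flow, and peaks called with MACS2 (2.1.1, per the labels) in ATAC mode, keeping q-values up to 0.05 and enrichment of 2.0-fold or more. The deposited list gives 1 summit per peak with the −log10 of its q-value, called the score. Shifting of reads for the transposase and treatment of multi-mapped reads are not given in the sources used here. The RNA-seq libraries were not used here.

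Summits were placed against 25999 TSSs of 21000 genes with curated RefSeq mRNAs in the same build (GRCm38), on the 19 autosomes and the sex chromosomes. Genotypes could not be tested without values per library. Gene lists were described by counts and medians beside those of all genes, and no test between lists was run. Shares carry 95% Wilson intervals where printed. Genes and gene lists were chosen with earlier results of these data known. Every gene was described, with sequences for the highest score per complex, for genes with an NRF1, ERR or YY1 word and for the c subunit genes, except 6 whose printable stretch lacked the word or was too short and any on chromosome 18. Alternatives changed the score minimum, promoter window, transcripts, merging of summits and assignment of summits to genes. The counting steps were tested on simulated data. The software was Python 3.11.15 with numpy 2.4.6, pandas 2.3.3 and scipy 1.17.1, and figures were drawn in matplotlib 3.10.9. The name of 1 neighbouring gene is not reported here.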

Additional observations from a re-analysis of the deposited data

How the results depend on the processing

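The minimum score moved the counts most. With a score of at least 10, all genes with a promoter summit fell from 9485 to 4944, summits within 1 kb of a TSS of the 44 genes from 50 to 31, and genes of complexes II to V with a summit in the gene body from 25 to 15. The genes of complex II with a promoter summit then numbered 5 and those of complex IV 4. Of 72 alternative values 67 stayed within 1.5 times the reported one, and these 5 did not. That limit is wide, as the fall from 42 to 29 genes with a promoter summit lies within it. Counts at or near the full number of genes could not rise past it. Under the alternatives that were run, the genes with a promoter summit numbered 29 to 43 of 44, and the median best score ran from 14.0 to 16.7. At a score of at least 5, Sdhaf4 and Uqcrc1 lost their promoter summit. Alternatives for the words, the head-to-head neighbours and a count of all genes on autosomes alone were chosen after seeing the data. They gave 9371 genes with a promoter summit on autosomes, 10 to 17 genes with an NRF1, ERR or YY1 word and 15 to 16 genes with a neighbour.

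No paired analysis was possible because these data hold 1 score per peak and no value per library. For the same reason leaving out each replicate was not run. Read depth is unknown, so that a gene without a summit, such as Cox6c, was not called at the authors' cutoff, and its chromatin was not shown to be closed.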

Other observations

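Other genes of the pathway, on a list of cofactors and assembly factors that are not subunits, mostly had a promoter summit as well. They were 30 of 34 (88.2%, against 45.2% of all genes), with a median score of 12.5. Cycs, which encodes the cytochrome c that carries electrons from complex III to complex IV, had the highest, 155 at rank 24 of the list, above the 98.3 of Atp5j. Other assembly genes of complex IV spread widely. Cox14 scored 59.8, Cox20 45.8, Cox18 39.3, Coa7 30.1, Coa5 28.5 and Pet100 27.6, above each of the 8 promoter scores of complex IV given in the report. Coa6, Pet117 and Sco2 scored 16.0, 14.0 and 11, and Surf1, Taco1, Cox19, Cox16 and Sco1 scored 8.99, 7.91, 7.05, 6.88 and 3.32. Of the genes for ubiquinone synthesis, Coq7 scored 55.7, Coq6 22.7, Coq9 21.6, Coq5 5.07, Coq4 2.92 and Coq3 2.15, and Coq2 had no promoter summit. Atpaf2, an assembly factor of the F1 head, scored 35.9, while its partner Atpaf1 had none, as had Coa3 and Tmem70. Slc25a4, the ADP/ATP carrier of heart and muscle, scored 10.9, and Slc25a5 was not counted as it has no curated mRNA on an autosome.

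The annotation names 13 pseudogenes after the genes of complexes II to V. None of the 13 had a summit within 1 kb. The share over all annotated pseudogenes was not counted, so this count cannot be read as particular to these 13.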
